A study of Mus musculus with 8 samples.

Results

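The measurements described here are those of the microRNA precursors that gave a signal in cranial neural crest cells (cNCCs) with and without Sonic hedgehog (SHH). The array has 511 transcript clusters whose single gene symbol is that of a microRNA, and the members, selected on their measured level, were the 123 of these (24.1%) with a mean log2 signal over all 8 arrays above 6. Of the 123, 121 were precursors and the others, *Mir99ahg* and *Mir100hg*, were host transcripts whose symbols begin in the same way. The rule used the mean level and not the difference between treatments. Over the 408 microRNA rows with a hairpin sequence, signal rose with the GC content of the hairpin (Pearson's r 0.48). Median GC was 53.8% in members and 46.8% in rows at or below 6. How far GC content decided which rows passed the level was not tested. The 388 rows left out had means at or below 6, a level that 44.7% of all 41345 transcript clusters exceeded. A further 136 clusters listed several symbols with a microRNA among them and are not named, of which 70 had a mean above 6 (6 of these were higher and 7 lower in SHH-treated cells at the threshold given below).

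O9-1 cells are an immortalized line derived from mouse cNCCs, so every sample is of 1 line. After 24 h of attachment the cells were held in DMEM with 1% FBS, either with vehicle (4 arrays) or with SHH-N, the amino-terminal signaling peptide, at 0.4 μg/mL (4 arrays), and RNA was taken 48 h after treatment. Each RNA was hybridized to its own Affymetrix Mouse Gene 2.0 ST array. The labels call the samples biological replicates without saying whether they were separate cultures, so p-values measure the spread between these samples.

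A microRNA begins as a hairpin within a longer primary transcript, which may be the transcript of a protein-coding gene, of a long non-coding RNA or of its own gene. Drosha with Dgcr8 cuts the hairpin out, Xpo5 exports it, Dicer1 trims it, and an Argonaute protein takes up the mature strand. The mature strand then pairs with target messenger RNAs, mainly through its seed near the 5′ end, and lowers their translation or stability. Several microRNAs are made from more than 1 locus, and neighbouring hairpins often share a primary transcript. A probe set for a precursor lies in the hairpin region, which the primary transcript also holds. The signals below therefore cannot tell precursor from primary transcript, and the share of each was not measured. No mature microRNA was measured.

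The sequences that follow are those of precursors lower in SHH-treated cells, for which RefSeq (GRCm38.p6) gave a mature strand, shown 5′ to 3′ with the seed (bases 2 to 8) in capitals so that the products behind the values can be told apart. Of the 123 members, 101 were matched to a hairpin there.
miR-218-5p, from *Mir218-1* (chr5:48223966-48223986, plus strand): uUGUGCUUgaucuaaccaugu
miR-16-5p, from *Mir16-2* (chr3:69009918-69009939, plus strand): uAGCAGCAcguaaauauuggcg
miR-181b-5p, from *Mir181b-1* (chr1:137966650-137966673, plus strand): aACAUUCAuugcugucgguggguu
miR-708-5p, from *Mir708* (chr7:96249450-96249472, plus strand): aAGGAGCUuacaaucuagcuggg
miR-31-5p, from *Mir31* (chr4:88910614-88910635, minus strand): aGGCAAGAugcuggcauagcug
miR-23b-5p, from *Mir23b* (chr13:63300492-63300512, plus strand): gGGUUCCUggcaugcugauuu
miR-341-3p, from *Mir341* (chr12:109611556-109611576, plus strand): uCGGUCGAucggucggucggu
No seed was shared between these 7 strands. For *Mir23b* only miR-23b-5p was annotated there, so the strand of its other arm is not shown.

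Next are the hairpins of the 2 pairs of loci with the same mature strand whose values differed most, with the annotated mature strands in capitals. Within a pair the first capital run is identical while the loop and the flanks are not.
*Mir16-1* (chr14:61631880-61631972, minus strand): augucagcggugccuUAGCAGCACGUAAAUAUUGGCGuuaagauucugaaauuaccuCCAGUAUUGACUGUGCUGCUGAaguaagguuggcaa
*Mir16-2* (chr3:69009902-69009996, plus strand): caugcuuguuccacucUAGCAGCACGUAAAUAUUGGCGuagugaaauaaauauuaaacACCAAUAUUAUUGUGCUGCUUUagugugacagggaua
*Mir181b-1* (chr1:137966639-137966718, plus strand): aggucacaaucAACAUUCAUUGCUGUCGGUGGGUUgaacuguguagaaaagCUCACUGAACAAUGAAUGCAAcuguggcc
*Mir181b-2* (chr2:38853830-38853918, plus strand): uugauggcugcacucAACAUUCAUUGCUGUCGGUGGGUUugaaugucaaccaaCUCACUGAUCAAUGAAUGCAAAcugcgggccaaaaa

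The labels were first checked with 2 targets of the pathway. *Gli1*, the transcription factor that hedgehog signaling induces, had a mean log2 signal of 5.33 in vehicle and 10.04 in SHH-treated cNCCs, and *Ptch1*, the SHH receptor, had 8.45 and 12.85, with adjusted p values of 2.08e-07 and 1.61e-08 from limma. The median log2 signal of an array lay between 5.70 and 5.76. Of 9 measured neural crest mesenchyme markers, 7 were above 6 in both treatments, and 5 of the 9 were called by limma. *Snai2* (-1.53), *Tfap2a* (-0.98), *Acta2* (-0.78) and *Prrx1* (-0.62) were lower in SHH-treated cells and *Cd44* (0.69) was higher. Of 3 endothelial markers, *Pecam1* and *Kdr* were below 6 in both treatments, and *Cdh5* rose from a mean of 5.40 to 6.08 (adjusted p = 0.00111 from limma). Of 4 epithelial markers, *Epcam* and *Krt14* were below 6, *Krt8* was at 6.42 and 6.56, and *Cdh1* rose from 6.35 to 8.12 (1.77, adjusted p = 3.43e-05 from limma). The leukocyte marker *Ptprc* was at 4.04 and 4.20, and *Cd68* at 6.69 and 6.60. The part of these marker changes in the precursor values was not tested.

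With default limma settings on all arrays and clusters, lower signals were the only calls made among the detected precursors. At a Benjamini-Hochberg adjusted p under 0.01 from limma, fitted and adjusted over all 41345 transcript clusters, 8 of the 123 members were lower in SHH-treated cNCCs and 0 were higher. Over the whole array 3.51% of clusters were lower and 2.97% were higher, or 6.48% in either direction, and the members' share was 6.50%. Among clusters above a mean of 6, which is where all members lie, 7.2% were lower and 5.78% higher, 13% in all. The members' share was thus near that of all clusters and below that of clusters above 6, so the count of calls is no result about the precursors. At an unadjusted p under 0.05 from limma, 23 members were lower and 10 higher. With trend and robust settings of limma 9 members were called lower and 2 higher, and the methods' t-test called 3 lower and 1 higher. The lack of higher calls thus depended on the setting. Over all members 69 differences were negative and 54 positive, with a median log2 difference of -0.04, against -0.01 for all clusters. The range of the members ran from -1.36 to 0.68, and the median standard error (SE) of a difference was 0.11. The ranges of vehicle and SHH-N values were separate in 22 members (17.9%), against 18.6% of all clusters and 32.9% of those above 6.

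**Figure D1:**
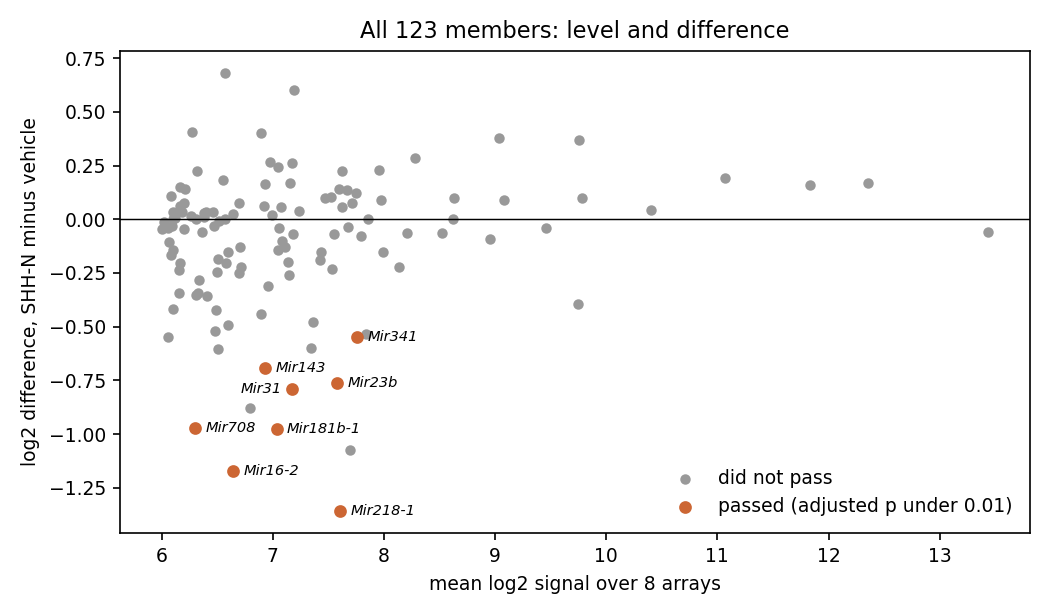
Mean log2 signal over 8 arrays (horizontal axis) against the log2 difference, SHH-N minus vehicle (vertical axis), with 1 point for each of the 123 members. The 8 members with an adjusted p under 0.01 from limma are named, and all lie below 0 at mean signals under 8.

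The largest difference was that of *Mir218-1*, a precursor within *Slit2*, the gene of a secreted axon guidance ligand. Its log2 signals were 8.48, 8.25, 8.25 and 8.16 in the vehicle arrays and 6.92, 6.81, 7.33 and 6.64 in the SHH-N arrays. The groups did not overlap, and SHH-N replicate 3 was the highest of its group. *Mir218-1* fell by 1.36 log2 units (SE 0.15, limma adjusted p = 0.000426, n = 4 per treatment). It was called under all 14 other settings tried.

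*Mir16-2*, one of the loci of miR-16, a microRNA whose known targets include cell cycle genes, had log2 signals of 7.18, 7.42, 7.26 and 7.04 in vehicle. In the SHH-N arrays the values were 5.92, 5.75, 6.24 and 6.31, all below the lowest vehicle value. It fell by 1.17 log2 units (SE 0.14, limma adjusted p = 0.000797). The paired hairpin *Mir15b*, which lies within 10 kb of it, was too dim to be a member, with means of 5.39 and 4.15, and also fell by 1.24 (adjusted p = 8.41e-05 from limma). Both SHH-N means of this pair are near or below the array medians, where a signal may be background and a fold would then be understated.

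*Mir143*, a precursor known from smooth muscle cells and other mesenchymal cells, showed the narrowest spread of the 8. The vehicle arrays gave log2 signals of 7.34, 7.14, 7.31 and 7.31, and the SHH-N arrays gave 6.57, 6.65, 6.67 and 6.44. There was a gap between the groups, and vehicle replicate 2 was the low value of its group. It fell by 0.69 log2 units (SE 0.07, limma adjusted p = 0.000448). Its neighbour *Mir145a*, processed from the same primary transcript, had means of 6.30 in vehicle and 5.33 in SHH-treated cells and was no member, with a difference of -0.96 (adjusted p = 0.0182 from limma) that did not pass. The smooth muscle actin gene *Acta2*, from the marker list, had means of 13.48 and 12.70.

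*Mir708*, within the teneurin gene *Tenm4*, had log2 signals of 6.64, 6.85, 6.90 and 6.76 in vehicle and of 5.68, 5.93, 6.15 and 5.51 with SHH-N. It is the only called member with a treatment mean below 6 (5.82 in SHH-treated cells), so it passed the level rule through the vehicle arrays. It fell by 0.97 log2 units (SE 0.14, limma adjusted p = 0.00204). Of the 123 members, 5 had 1 treatment mean at or below 6, in each case that of SHH-treated cells. Beside *Mir708* these were *Mir701* (5.78), *Mir23a* (5.89), *Mir9-3* (5.98) and *Mir654* (5.98), which passed the level through the vehicle arrays too.

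*Mir31* encodes a microRNA known for roles in cell migration. Its log2 signals were 7.57, 7.44, 7.62 and 7.66 in vehicle and 6.90, 6.85, 6.96 and 6.42 with SHH-N, without overlap. It fell by 0.79 log2 units (SE 0.12, limma adjusted p = 0.00332), and the call was lost in 6 of the 14 settings. The lncRNA locus that holds it on the same strand had no cluster of its own with 1 symbol.

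The other three called members were less stable to the choice of arrays. *Mir181b-1* had log2 signals of 7.63, 7.69, 7.16 and 7.60 in vehicle and 6.31, 6.29, 6.88 and 6.71 with SHH-N, a difference of -0.97 (SE 0.17, adjusted p = 0.00653 from limma). *Mir23b*, the first hairpin of a cluster with *Mir27b* and *Mir24-1*, had 8.09, 8.09, 7.84 and 7.84 in vehicle and 7.01, 7.41, 7.43 and 6.95 with SHH-N. Its log2 difference was -0.76 (SE 0.13, adjusted p = 0.00655 from limma). *Mir341*, of the imprinted *Dlk1*-*Dio3* region, had 8.16, 8.02, 7.94 and 8.02 in vehicle and 7.39, 7.55, 7.67 and 7.33 with SHH-N. It fell by 0.55 log2 units (SE 0.09, limma adjusted p = 0.00459). The groups of these 3 precursors did not overlap either. Their direction was the same under all 14 settings, but the call was lost in 8, 8 and 9 of them. Neighbours within 10 kb that were too dim to be members did not pass. *Mir181a-1*, beside *Mir181b-1*, had a difference of -0.37 (SE 0.36, adjusted p = 0.600 from limma). *Mir370*, beside *Mir341*, had one of -0.40 (SE 0.19, adjusted p = 0.248 from limma).

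**Figure D2:**
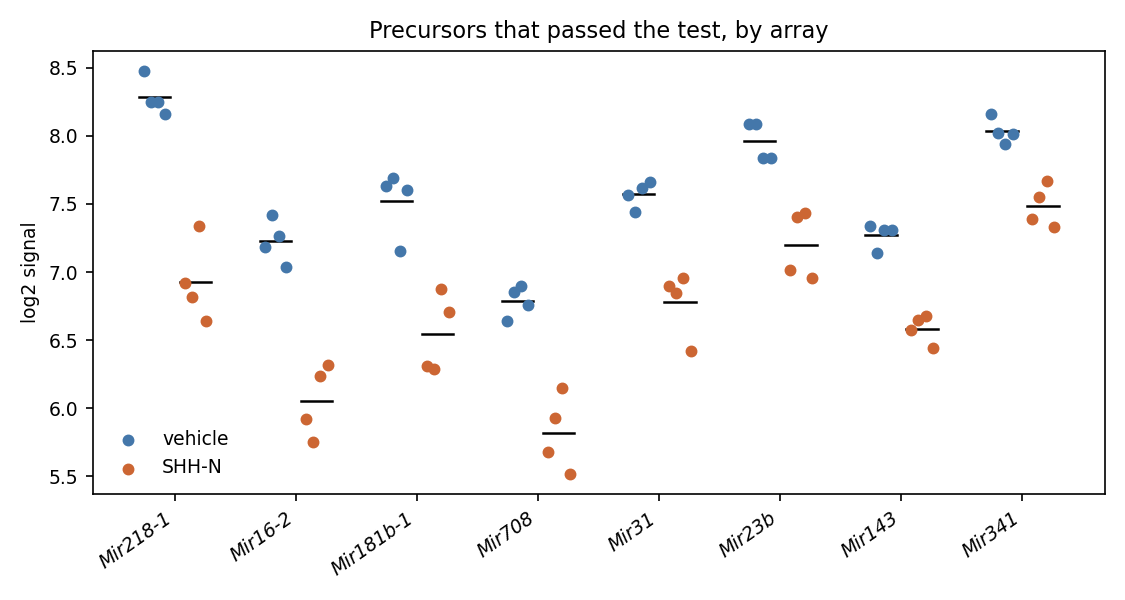
Log2 signal (vertical axis) of the 8 called precursors in each array, with vehicle (n = 4) and SHH-N (n = 4) as points and the mean of each treatment as a line. Every SHH-N value lies below every vehicle value of the same precursor, and the SHH-N values of *Mir218-1* reach from 6.64 to 7.33.

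One array weighed on the number of calls. SHH-N replicate 3 was the highest SHH-N array in 7 of the 8 called members and in 60 of all 123. How often it was the highest over all clusters was not counted. When it was left out, 14 members were lower and 1 was higher, among them all 8 of the first count. Over all 41345 clusters 1322 were then lower and 1024 higher, against 1453 and 1226 with all arrays. The 6 additional lower members were *Mir199a-1*, *Mir377*, *Mir199b*, *Mir701*, *Mir1931* and *Mir100hg*, and the higher member was *Mir5135* (0.43, adjusted p = 0.00986 from limma). Of these *Mir199b* moved most, with a log2 signal of 8.25 in that array against 7.14 to 7.54 in the other SHH-N arrays and 7.87 to 8.21 in vehicle. Leaving out any other single array gave 4 or 5 lower members, with 1018 to 1184 lower clusters over the whole array. In the labels nothing sets this array apart from the others.

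Just outside the threshold, at an adjusted p from 0.01 to 0.05 in limma, there were 6 lower and 2 higher members, which makes 14 lower and 2 higher at 0.05 (6.34% and 5.01% of all clusters, 11.4% in all, and 11.8% and 9.27% of those above 6, 21% in all). *Mir199a-1*, a mesenchymal precursor, was nearest, with log2 signals of 8.12, 8.42, 8.33 and 8.06 in vehicle and 7.51, 6.94, 7.53 and 6.65 with SHH-N. Its difference was -1.08 (SE 0.20, adjusted p = 0.0105 from limma), and the groups did not overlap. The other lower ones were *Mir377* (-0.88), *Mir1931* (-0.60), *Mir382* (-0.52), *Mir1188* (-0.42) and *Mir654* (-0.34). *Mir5135* had log2 signals of 8.80, 8.79, 8.81 and 9.00 in vehicle and 9.24, 9.32, 9.08 and 9.28 with SHH-N, a difference of 0.38 (adjusted p = 0.0137 from limma). *Mir181b-2* had the largest positive difference of all members, 0.68 (SE 0.17, adjusted p = 0.0376 from limma).

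The second precursor of miR-181b thus lay on the other side of 0 from the first. The miR-181b-5p strand is made from *Mir181b-1* and *Mir181b-2*, on chromosomes 1 and 2. *Mir181b-2* had log2 signals of 6.28, 6.18, 6.34 and 6.11 in vehicle and 6.81, 6.83, 7.44 and 6.56 with SHH-N, without overlap, while *Mir181b-1* was lower in every SHH-N array than in any vehicle array. The difference between the log2 differences of these loci was -1.66 (SE 0.24, exact permutation test over the 8 arrays, two-sided p = 0.0286, n = 4 per treatment). This p is the smallest that 4 against 4 arrays can give, and adjusted over the 5 pairs of loci that share a mature strand it was 0.0714.

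The miR-16 loci differed in size. *Mir16-1*, on chromosome 14, had log2 signals of 6.70, 6.62, 6.47 and 6.12 in vehicle and 5.98, 6.18, 6.60 and 6.01 with SHH-N, and these overlapped. Its difference of -0.28 (SE 0.17, adjusted p = 0.365 from limma) stood against -1.17 for *Mir16-2*. The gap was 0.89 (SE 0.19, exact permutation test, two-sided p = 0.0286, n = 4 per treatment, 0.0714 over the 5 pairs). The pair *Mir199a-1* and *Mir199b* gave a gap of -0.54 (exact p = 0.0571, 0.0952 over the pairs). For *Mir219a-1* and *Mir219a-2* the gap was -0.08 (SE 0.07, exact p = 0.343), and for *Mir9-1* and *Mir9-3* it was 0.00 (SE 0.20, exact p = 0.971). None of the 5 pairs passed 0.05 after adjustment. Whether probes of loci with a shared mature strand take up each other's RNA was not tested.

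**Figure D3:**
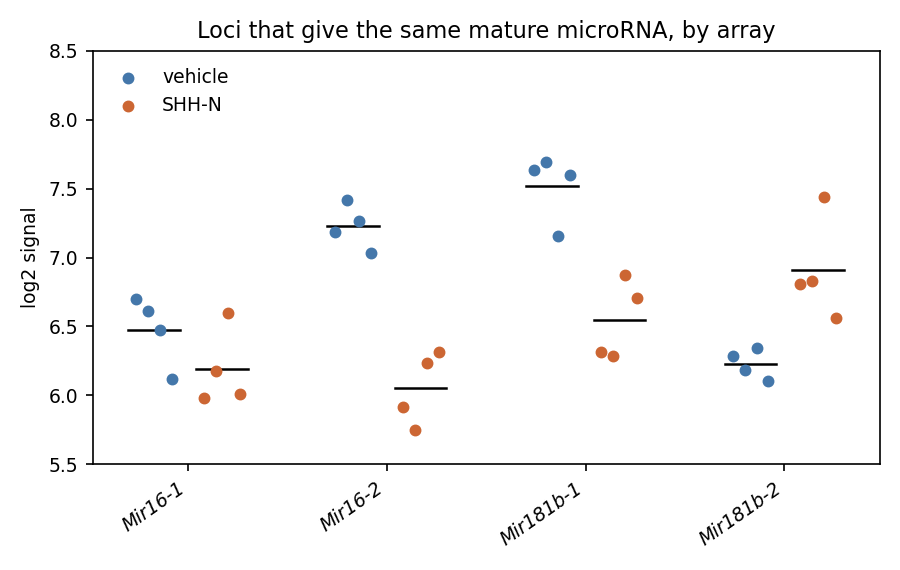
Log2 signal (vertical axis) by array of the loci that give miR-16-5p (*Mir16-1*, *Mir16-2*) and miR-181b-5p (*Mir181b-1*, *Mir181b-2*), with vehicle and SHH-N arrays (n = 4 each) as points and means as lines. *Mir181b-1* goes from a mean of 7.52 to 6.55, and *Mir181b-2* from 6.23 to 6.91.

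Seeds group the precursors by the targets they could share. For the 107 members with a mature strand in RefSeq there were 180 strands and 164 seeds, of which 12 occurred at more than 1 locus. Strands not annotated there, such as that of the other arm of *Mir23b*, are not in these counts, so shared seeds may be missed. The most frequent was ACAUUCA of the miR-181 family, at 5 loci. Beside *Mir181b-1* and *Mir181b-2* these were *Mir181a-2* (0.03), *Mir181c* (-0.15) and *Mir181d* (0.12), none of which passed. The seed AGCAGCA was at 3 loci, *Mir15a*, *Mir16-1* and *Mir16-2*. *Mir15a* was among the brightest members, with a mean log2 signal of 9.76, and had a positive difference of 0.37 (SE 0.12, adjusted p = 0.0857 from limma), with all SHH-N arrays (9.72 to 10.18) above all vehicle arrays (9.41 to 9.70). Members of 1 seed group therefore had differences of both signs.

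Precursors within 10 kb of each other formed 12 groups, which may come from shared primary transcripts and are not independent. The groups outside the *Dlk1*-*Dio3* region held no called member. They were formed from members only, so *Mir16-2*, *Mir143* and *Mir181b-1*, whose neighbours *Mir15b*, *Mir145a* and *Mir181a-1* were too dim, are in none of them. *Mir18* (-0.14) and *Mir19a* (-0.13), of the growth-promoting miR-17-92 cluster, did not pass, nor did *Mir23a* (-0.42) and *Mir27a* (-0.15), *Mir99b* (-0.08) and *Mirlet7e* (-0.04), or *Mir191* (0.03) and *Mir425* (0.02), with adjusted p values from 0.262 to 0.962 in limma. *Mir23a*, the paralog of *Mir23b*, had log2 signals of 6.02 to 6.55 in vehicle and 5.18 to 6.28 with SHH-N, and these overlapped. *Mir181d* and *Mir181c*, *Mir16-1* and *Mir15a*, and *Mir181a-2* and *Mir181b-2* are given above by seed. The group of *Mir467e* (-0.13), *Mir669m-1* (0.01) and *Mir466h* (-0.48), from a repeated array within *Sfmbt2*, did not pass either.

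The *Dlk1*-*Dio3* region on chromosome 12 is an imprinted domain whose maternally expressed non-coding RNAs, *Meg3*, *Rian* and *Mirg*, carry many microRNAs. It held 14 members, the largest group. Of these, 10 had a negative and 4 a positive difference, with a median of -0.33, against -0.03 for the other 109 members. Among all clusters above 6, 51.1% of differences were negative. One, *Mir341*, was lower at an adjusted p under 0.01, where 3.51% of all clusters and 7.2% of those above 6 were lower. At 0.05, 5 were lower, beside 6.34% of all clusters and 11.8% of those above 6. None was higher at either threshold, where 5.78% and 9.27% of clusters above 6 were higher. The order along the chromosome was uneven, since *Mir673* (0.29) and *Mir540* (0.11) at the start had positive values, the members within *Rian* had negative values and *Mir666* and *Mir667* were near 0 (0.01 and 0.00). From *Mir654* on, all 5 differences were negative, from -0.34 to -0.88. *Mir654* itself, which is also among those lower at 0.05, passed the level of 6 through the vehicle arrays (means of 6.32 and 5.98).

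*Mir377* lay farthest from 0 in the region, with log2 signals of 7.25, 7.41, 7.28 and 6.98 in vehicle and 6.54, 6.15, 6.84 and 5.89 with SHH-N, without overlap, and a difference of -0.88 (SE 0.20, adjusted p = 0.0243 from limma). *Mir382* had a difference of -0.52 (adjusted p = 0.0156), and *Mir1188*, next to *Mir341* in *Rian*, one of -0.42 (adjusted p = 0.0376, both from limma). The 33 rows of this region at or below a mean of 6 had 28 negative differences, with a median of -0.18, where 52.9% of all clusters were negative. The host RNA *Rian* had log2 signals of 9.42 to 9.52 in vehicle and 9.04 to 9.14 with SHH-N, and fell by 0.37 (SE 0.05, adjusted p = 0.00244 from limma). *Meg3* (-0.01, adjusted p = 0.962), *Dlk1* (-0.01, adjusted p = 0.966) and *Dio3* (0.08, adjusted p = 0.746) did not pass in limma, and their mean log2 signals were 5.96, 6.09 and 5.23. *Mirg* had no cluster with its symbol alone.

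**Figure D4:**
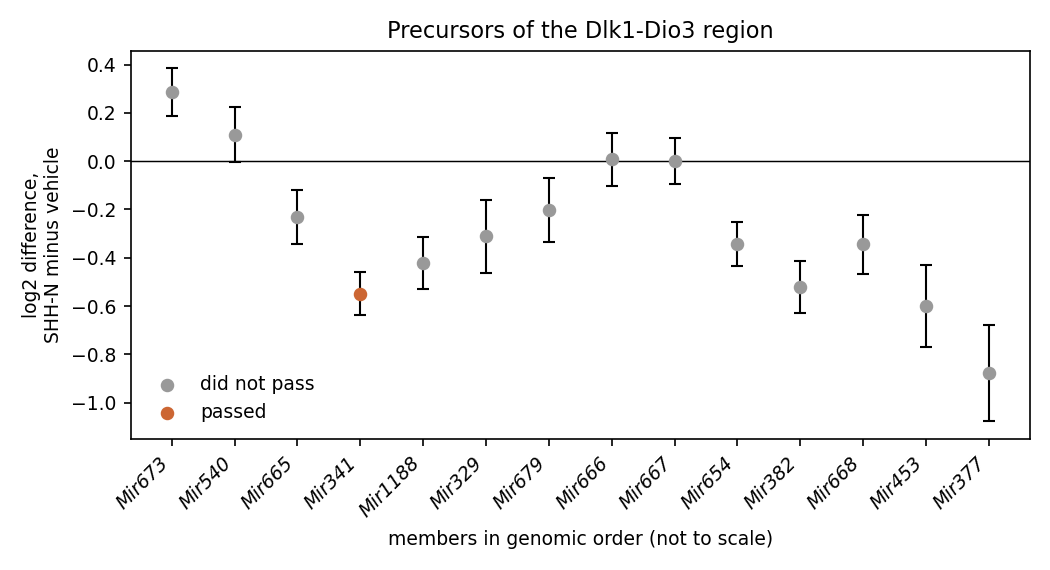
Log2 difference, SHH-N minus vehicle (vertical axis), of the 14 members in the *Dlk1*-*Dio3* region in genomic order, which is not to scale. Points are differences with SEs from limma (n = 4 per treatment), and *Mir341*, at -0.55, is the member that passed. *Mir377*, the last in order, is at -0.88.

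Precursors within genes were set beside their hosts. Of the 121 precursors, 84 lay within another gene and 57 within one on the same strand, and for 50 of these the host was measured. The 46 hosts had 5 higher and 10 lower calls, where limma called 6.48% of all clusters and 13% of those above 6 in either direction. In 17 of the 50 pairs the host was called, and in 14 of those 17 the precursor was not. Only 6.50% of all members were called, so this count is not read as hosts and precursors going apart. Pearson's r between host and precursor differences was 0.40 over the 50 pairs, which is a description across genes that share arrays and, for some pairs, a host.

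Where both were called, they went the same way. *Slit2* had log2 signals of 11.13 to 11.26 with SHH-N and a vehicle mean of 12.12, and fell by 0.95 (SE 0.06, adjusted p = 1.9e-05 from limma), and *Mir218-1* fell by 1.36. *Tenm4* fell by 0.57 (adjusted p = 0.000226 from limma) and *Mir708* fell by 0.97, and *Rian* fell by 0.37 where *Mir341* fell by 0.55. *Smc4*, a condensin subunit gene whose span holds *Mir16-2*, fell by 0.80 (adjusted p = 1.56e-05 from limma), and *Carmn*, the non-coding RNA that holds *Mir143*, fell by 0.54 (adjusted p = 0.0047 from limma). The strand of *Smc4* and *Carmn* is not in the tables used, so they are outside the 50 pairs. *Carmn* lost its call in 9 of the 14 settings.

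*Mir23b* was the exception. *Aopep*, an aminopeptidase gene that holds it on the same strand, had mean log2 signals of 7.47 and 7.43 and a difference of -0.04 (SE 0.05, adjusted p = 0.709 from limma). *Dnm2*, which holds *Mir199a-1* on the opposite strand, had a difference of -0.01 (adjusted p = 0.967 from limma). *Nr6a1*, on the opposite strand to *Mir181b-2*, had one of -0.31.

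A called host with an uncalled precursor was the more frequent case, as few precursors were called at all (6.50% of members). The pairs that follow are examples of it. *Igf2*, the insulin-like growth factor gene, rose from a mean log2 signal of 8.39 to 10.40, by 2.01 (adjusted p = 2.35e-06 from limma), while *Mir483* in it had log2 signals of 7.56 to 7.84 in vehicle and 7.41 to 8.04 with SHH-N, a difference of 0.07 (SE 0.14). *Fam114a1* fell by 1.07 and *Zfp185* fell by 1.42 log2 units, with *Mir574* at 0.00 (SE 0.08) and *Mir2137* at -0.07 (SE 0.08). *Zmiz1*, a transcriptional coregulator gene, rose by 1.10. *Mir3075* in it had a difference of 0.41 (SE 0.13, adjusted p = 0.0919 from limma), with SHH-N values of 6.32 to 6.78 above vehicle values of 5.81 to 6.24. *Dleu2*, the non-coding host of *Mir15a* and *Mir16-1*, had mean log2 signals of 8.11 and 8.63 and rose by 0.52, and the differences of its hairpins were 0.37 and -0.28. The hosts of the miR-16 loci, *Dleu2* and *Smc4*, thus went in opposite directions.

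**Figure D5:**
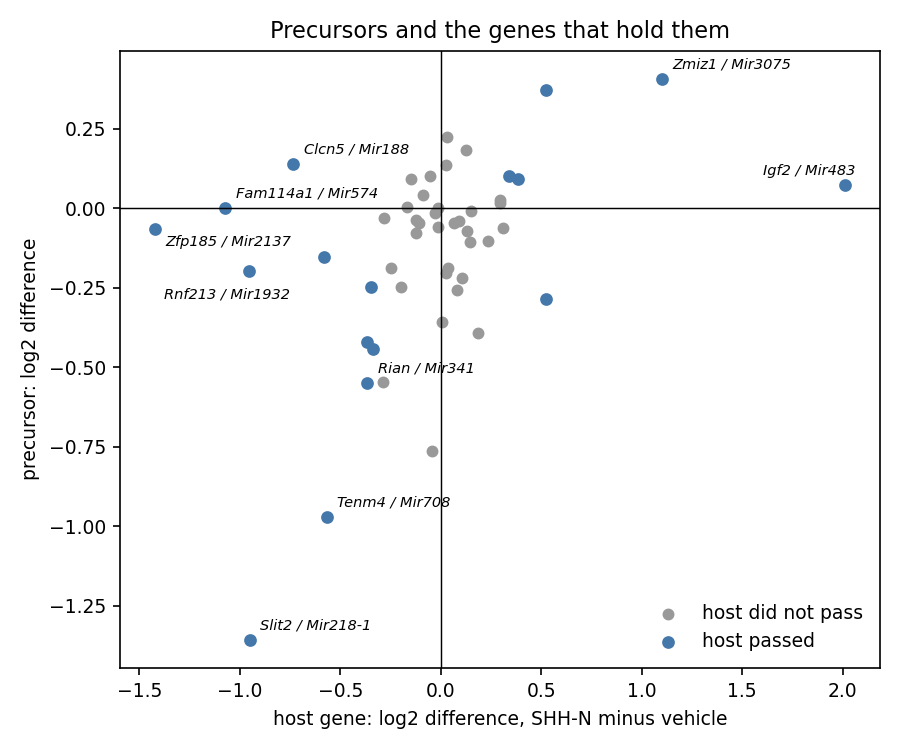
Log2 difference, SHH-N minus vehicle, of the host gene (horizontal axis) against that of its precursor (vertical axis), with 1 point for each of the 50 pairs on the same strand. Blue points are the 17 pairs whose host passed an adjusted p under 0.01 from limma, and *Igf2* with *Mir483* is at 2.01 and 0.07.

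The brightest members did not pass. Mean log2 signals were 13.44 for *Mir5099*, 12.36 for *Mir449b*, 11.83 for *Mir692-1*, 11.07 for *Mir703* and 10.40 for *Mir5125*, and then *Mir1195*, *Mir15a*, *Mir761*, *Mir467c* and *Mir1956* between 9.78 and 9.08. Signals of different probe sets are not a measure of relative abundance. *Mir449b* had log2 signals of 12.31, 12.29, 12.26 and 12.23 in vehicle and 12.42, 12.47, 12.44 and 12.45 with SHH-N, without overlap. The difference was 0.17 (SE 0.05, adjusted p = 0.0691 from limma), and *Mir449b* was called by the methods' t-test and by limma with trend and robust settings. *Cdc20b*, in which it lies, had a mean log2 signal of 5.38. *Mir761* had the largest difference of the 10, -0.39 (adjusted p = 0.157 from limma).

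Only 18 members had a mean log2 signal above 8, and 65 were at or below 7. The members just inside the limit were *Mir9-3* (6.001), *Mir186* (6.02) and *Mir3081* (6.05), and those just outside were *Mir152* (5.99), *Mir323* (5.97) and *Mir1970* (5.96). Of the 388 rows at or below 6, 3 were lower and 0 higher (0.773% called by limma). These were *Mir15b*, *Mir1962* (-0.60) and *Mir496a* (-0.47).

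Genes of the microRNA pathway did not pass the test. Of 31 listed genes for processing, export, Argonaute function and decay, 28 were measured, and 0 were called by limma in either direction. The shares called were 6.48% of all clusters and 13% of those above 6. At an adjusted p under 0.05 from limma 5 of the 28 passed, beside 11.4% and 21%. With so few genes the counts are not read as a result about the pathway. Unadjusted p values were under 0.05 for 12, and limma with trend and robust settings called 2 higher and 3 lower. The median log2 difference was 0.01 and the range -0.57 to 0.35. *Drosha*, the nuclear RNase of the first cut, had log2 signals of 9.07 to 9.22 in vehicle and 8.89 to 9.03 with SHH-N, a difference of -0.17 (SE 0.06, adjusted p = 0.141 from limma). *Dicer1* had a difference of -0.08 (SE 0.06) and the exporter gene *Xpo5* one of 0.05 (SE 0.06). *Ago2*, the Argonaute that cuts its targets, had one of -0.06 (SE 0.06).

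At an adjusted p from 0.01 to 0.05 in limma were *Ran*, the GTPase of Xpo5-dependent export (0.35, adjusted p = 0.0104), *Adar*, the RNA editing enzyme gene (-0.30, adjusted p = 0.0112), the uridylyl transferase genes *Tut4* (0.22, adjusted p = 0.0235) and *Tut7* (-0.23, adjusted p = 0.0383), and *Snd1*, a nuclease gene (-0.26, adjusted p = 0.0401). *Ago4* was dim, with mean log2 signals of 6.04 and 5.47. In bulk RNA a smaller share of cells with a transcript and less of it in each cell cannot be told apart, for these genes and for the precursors alike.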

How the data were processed

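RNA of O9-1 cells with vehicle (n = 4) or SHH-N (n = 4) was assayed on 1 Affymetrix Mouse Gene 2.0 ST array per sample. The authors scanned with GCOS, made signals in Expression Console and ran their test in Transcriptome Analysis Console 2.0. For each transcript cluster they deposited a log2 signal, which was used unchanged. The normalization algorithm and genome build are not given in the sources used here. No background measure comes with the values. The number of arrays limits precision.

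Groups came from the labels. The test over all 41345 clusters was that of limma 3.58.1 under R 4.3.3 (lmFit and eBayes, default settings, Benjamini-Hochberg adjustment, called at an adjusted p under 0.01), in place of the vendor's console test. Pairs of loci were compared by exact permutation over the 8 arrays. The fit was tested on simulated data. Symbols came from the array's annotation. Positions, hosts and sequences came from RefSeq tables on GRCm38.p6. Members were matched to them by gene identifier, and the signals of hosts were found by symbol. A host is a gene whose span holds the precursor. For genes with several clusters the brightest with 1 symbol was used. Plots were made in Python 3.11.15 by matplotlib 3.10.9.

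Members, gene lists and tests were chosen with earlier results of these data known. Named are the called members, the 10 brightest, members of genomic groups, those next to the level of 6, hosts of called members, and *Gli1* and *Ptch1*. Members at an adjusted p from 0.01 to 0.05, loci that share a mature strand, neighbours of called members, other hosts, pathway genes short of the threshold and markers were named after their values were seen. Alternatives were the methods' t-test, trend and robust settings, median centring, quantile normalization, only clusters above 6, a replicate block, each array left out, a threshold of 0.05 and levels of 5 and 7.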

Additional observations from a re-analysis of the deposited data

Results flagged for a closer look

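In 5 of the 132 groups of 4 arrays checked for the named genes, 1 array lay far from the other three by Dixon's criterion, and chance alone flags about 1 in 20 groups. *Mir143* had 7.14 in vehicle replicate 2, with the other vehicle arrays at 7.31 to 7.34 on the log2 scale, and every SHH-N array was still lower. *Mir9-3* had 5.78 in vehicle replicate 3, with the others at 6.08 to 6.12. *Mir323*, just below the level for members, had 4.80 in SHH-N replicate 4, with the others at 5.68 to 5.84. *Mir1970*, also just below it, had 6.58 in vehicle replicate 3, with the others at 5.64 to 5.80. *Slit2*, the host of *Mir218-1*, had 11.26 in SHH-N replicate 3, with the others at 11.13 to 11.14.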

How the results depend on the processing

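The main limma fit gave 8 lower and 0 higher members, and the methods' t-test gave 3 lower and 1 higher. Trend and robust settings gave 9 lower and 2 higher, and only clusters above 6 gave 11 lower and 1 higher. The whole table had 1426 lower and 1234 higher by the t-test, and 1940 and 1596 with trend and robust settings. Of the 18497 clusters above 6 fitted alone, 1987 were lower and 1595 higher. An adjusted p under 0.05 gave 14 lower and 2 higher, and a level of 7 gave 5 lower of 58 members. Leaving out each array in turn gave 4 to 14 lower and 0 to 1 higher, and both upper ends were without SHH-N replicate 3. Without that array the whole table had 1322 lower and 1024 higher. With the replicate number as a block there were 2 lower members (*Mir218-1* and *Mir708*), and the whole table went from 1226 higher and 1453 lower to 624 and 616. Same-numbered arrays deviated together with correlations of -0.02 to 0.02, within the -0.105 to 0.067 over all pairs of a vehicle and an SHH-N array. The labels do not say whether the numbers pair the samples, and correlations of this kind cannot settle it. Of the pathway genes, with 0 in either direction in the main fit, the t-test called 2 higher and 1 lower, trend and robust settings 2 and 3, only clusters above 6 2 and 3, and a threshold of 0.05 2 and 3, while leaving out arrays gave 0 to 1 higher and 0 lower. Over the single named genes no called value changed sign, 46 values lost a call and 10 gained one. Of the uncalled genes, 15 with log2 differences of -0.13 to 0.04 changed sign in 44 values, none of them called. With single arrays left out the lowest and highest values were *Mir181a-2* -0.073 to 0.23, *Mir186* -0.12 to 0.12, *Mir191* -0.11 to 0.14, *Mir1970* -0.073 to 0.24, *Mir3081* -0.21 to 0.064, *Mir425* -0.056 to 0.15, *Mir467c* -0.086 to 0.017 and *Mir467e* -0.33 to 0.020, and *Mir5125* -0.061 to 0.097, *Mir666* -0.059 to 0.079, *Mir667* -0.057 to 0.081, *Mir669m-1* -0.081 to 0.11, *Mir9-1* -0.12 to 0.0056, *Mir9-3* -0.13 to 0.023 and *Mirlet7e* -0.26 to 0.064. *Mir186* was also at 0.00248 under median centring and 0.010 under quantile normalization. Causes were not tested. Of the 123 members, 65 lay within 1 log2 unit of the level of 6, and whether low signal limited the calls was not tested.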
